A study of Mus musculus with 4 samples.

Results

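The regions described here are the TOP2B peaks of mouse thymocytes that were called with both antibodies and lie between genes. They were chosen by their position. A Novus peak was taken if any of its bases, 1 or more, was also covered by a Santa Cruz peak, and if its centre lay outside every protein-coding gene and more than 1 kb from every protein-coding transcription start. Of the 3564 Novus peaks, 994 (27.9%) overlapped a Santa Cruz peak, and 408 of these lay between genes. These 408 are called common intergenic peaks. The overlap and the location made the choice and are therefore described without a test.

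TOP2B was mapped by ChIPseq in fresh thymocytes of wild-type C57BL/6 mice aged 4 to 6 weeks. Of 2 TOP2B antibodies, one from Santa Cruz and one from Novus Biologicals, each had 1 library. No genotype or treatment differed between the libraries, and the TOP2A and IgG libraries of the study are not analysed here. A peak list gives a position for every peak and no height, so that the depth behind a single peak is unknown. With 1 library per antibody there was no replicate spread, and the intervals given are 95% intervals that cover counting error only, over peaks that are not replicates.

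Topoisomerase IIβ (TOP2B) cuts a DNA duplex on both strands, lets a further duplex through the gap and reseals it, and thereby relieves the torsion and tangles that arise when chromatin is transcribed or folded into loops. Outside promoters it is known to sit beside the insulator protein CTCF and the cohesin ring. CTCF reads a long, directional DNA site, and cohesin loops are typically held between sites that point toward each other. Regions between genes also hold enhancers, which in thymocytes are bound by E proteins, RUNX, ETS, GATA and TCF/LEF factors. Each peak was therefore read for its DNA sequence, its neighbouring genes, its distance to the closest start and its spacing to other peaks.

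The sequences that carry the main result are CTCF-like sites at the middle of the peaks. The 10 common intergenic peaks with an exact match to the CTCF core consensus closest to the peak centre are given first (mm9). Each is named by the protein-coding gene with the closest start and printed 5′ to 3′ on the strand of the match, with the core of 12 bases in capitals and the 12 bases on each side of it in lower case.
*Wsb1* peak (chr11:79038107-79038142, plus strand): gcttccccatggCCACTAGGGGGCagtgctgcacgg
*H2-T3* peak (chr17:36330677-36330712, minus strand): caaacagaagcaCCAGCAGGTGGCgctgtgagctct
*C80913* peak (chr7:38846230-38846265, plus strand): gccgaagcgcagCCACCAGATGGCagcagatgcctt
*Lgals8* peak (chr13:12566204-12566239, plus strand): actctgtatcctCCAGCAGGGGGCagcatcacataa
*Mark2* peak (chr19:7420043-7420078, minus strand): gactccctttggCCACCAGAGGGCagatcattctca
*Ctr9* peak (chr7:118158635-118158670, minus strand): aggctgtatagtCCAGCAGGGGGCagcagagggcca
*Ebf1* peak (chr11:44821794-44821829, minus strand): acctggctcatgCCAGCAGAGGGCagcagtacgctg
*Kcnh8* peak (chr17:52699439-52699474, plus strand): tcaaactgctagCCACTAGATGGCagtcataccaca
*Fbxo47* peak (chr11:97761291-97761326, plus strand): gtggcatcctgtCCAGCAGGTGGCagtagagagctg
*Commd9* peak (chr2:101746101-101746136, plus strand): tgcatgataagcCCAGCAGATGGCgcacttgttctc
The middle of these cores lay between 1 and 12 bp from the peak centre, and the peaks themselves lay between 3.46 kb (*H2-T3*, a class I histocompatibility gene) and 390.1 kb (*Ebf1*, a B-lineage transcription factor) from a coding start. In 8 of the 10, the core was followed by the bases AG, and in the other 2 by GC.

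A CTCF core match with at most 1 mismatch was present within 250 bp of the centre in 198 of the 408 common intergenic peaks (48.5%, exact Clopper-Pearson interval 43.6% to 53.5%). All windows of 500 bp tiled over the same intergenic space, 3092272 in number, were searched in the same way, and 3.56% of them held a match. The share in the common intergenic peaks was thus 13.6-fold higher, and for exact matches, which 72 peaks held (17.6%, 14.1% to 21.7%), it was 83.4-fold higher than the 0.212% of the tiled windows. With 2 mismatches allowed, 76.5% of the peaks and 28.3% of the windows had a match, so that the looser search separated them less.

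The common intergenic peaks were richer in G and C than the space around them, with a median GC content of 49.0% over 500 bp (quartiles 45% and 52.0%) against 40.8% in the tiled windows. They also held more CpG dinucleotides, with a median of 8 against 3. Much of this was shared by other TOP2B peaks. The median GC content was 48.4% in common peaks inside genes, with a median of 6 CpG. Between genes it was 48.2% in Novus peaks that no Santa Cruz peak overlapped (6 CpG). In Santa Cruz peaks that no Novus peak overlapped it was 46.0% (5 CpG). The difference in CTCF content from the windows was present in every GC band. In peaks of less than 40% GC, 11 of 18 had a match (61.1%, 35.7% to 82.7%) against 2.29% of the windows, and in peaks of 55% GC or more, 22 of 56 did (39.3%, 26.5% to 53.2%) against 7.75%. When the tiled windows were weighted to the GC bands of the peaks, 5.45% held a match, and the peaks were 8.90-fold higher.

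**Figure D1:**
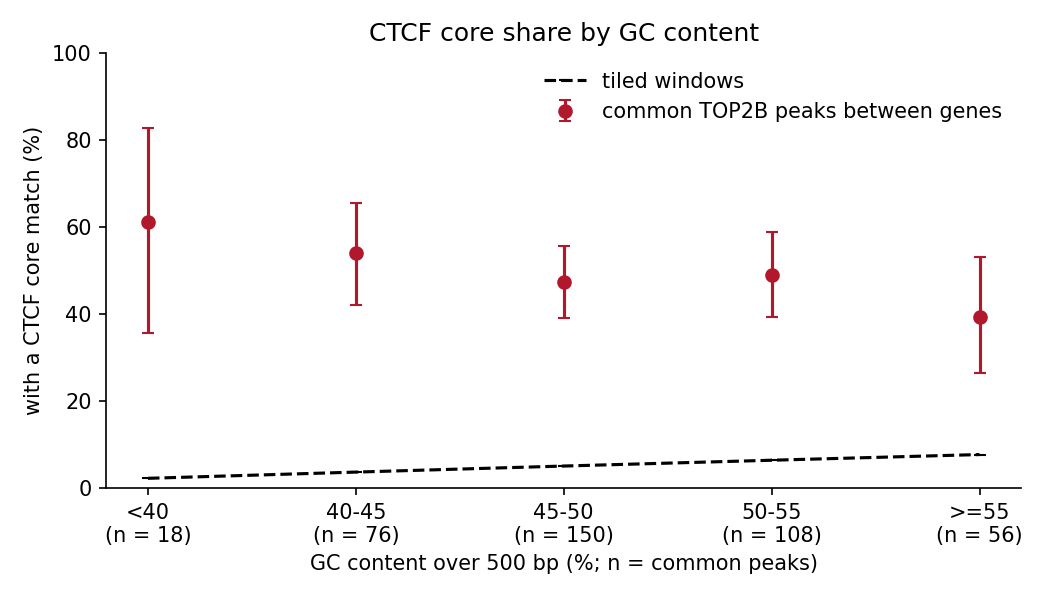
Percentage of 500-bp windows with a CTCF core match (at most 1 mismatch) by GC content, for the common TOP2B peaks between genes (points, with exact 95% intervals and the number of peaks under each band) and for all tiled windows between genes (dashed line). The peaks lie between 39.3% and 61.1% in every band and the windows between 2.29% and 7.75%.

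The matches sat at the centre of the peaks. Within 100 bp of the centre, 168 matches were counted, which is 20.6 per 100 bp and 100 peaks, whereas at 500 to 1000 bp from the centre the density was 1.5. Of the 198 peaks with a match, the best match lay within 100 bp of the Novus centre in 151 (76.3%) and within 50 bp in 80 (40.4%). Its median distance was 63.0 bp from the Novus centre, 59.0 bp from the centre of the overlapping Santa Cruz peak and 54.5 bp from the midpoint of both. In 61 of the 198 peaks no match lay within the bounds of the Novus peak itself. The match was on the plus strand in 107 peaks and on the minus strand in 91, and 23 peaks held 2 matches, none more.

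**Figure D2:**
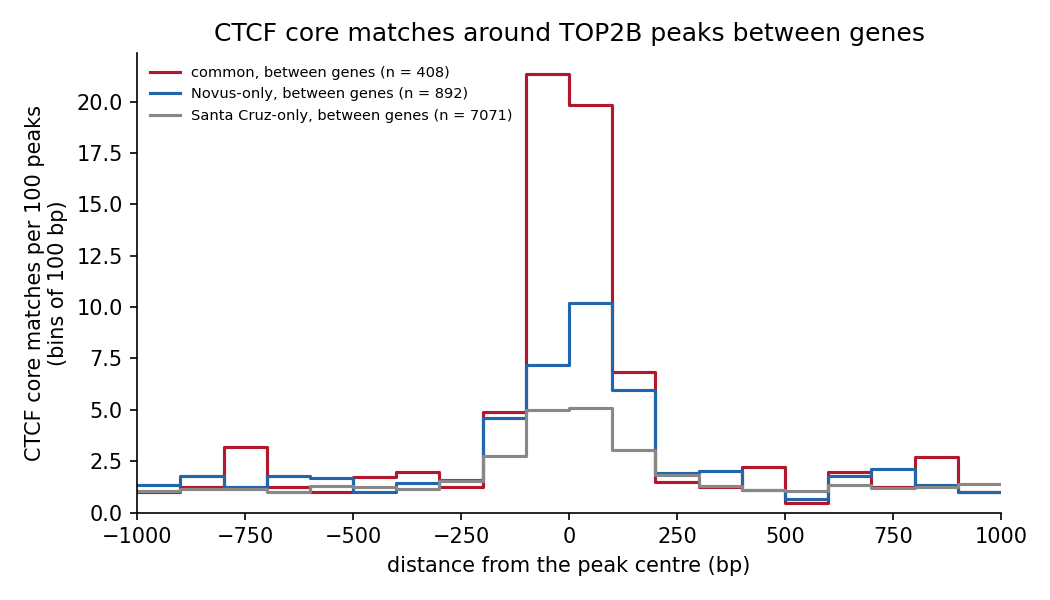
CTCF core matches (at most 1 mismatch) per 100 peaks in bins of 100 bp, against the distance from the Novus or Santa Cruz peak centre, for TOP2B peaks between genes that were common to both antibodies, Novus-only or Santa Cruz-only. In the common peaks the bins on either side of the centre hold 21.3 and 19.9 matches per 100 peaks, and those beyond 500 bp hold at most 3.19.

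The bases beside the core, which the search did not use, also differed from those beside matches in the tiled windows. The longer CTCF site is known to carry a TGG before this core, and a purine after it. Of 221 matches in the common intergenic peaks, 109 had T at the third base before the core (49.3%, 42.6% to 56.1%, against 20.2% in the windows), 98 had G at the second (44.3% against 19.8%) and 99 had G at the first (44.8% against 23.5%). An A or G followed the core in 196 (88.7%, 83.8% to 92.5%) against 63.3% in the windows. At the second base after the core, C or G stood in 104 and 86 matches, and T, the most frequent base in the windows at 37.4%, stood in 14 (6.33%). The 221 matches had 110 different cores, of which 67 were seen once, so that no single sequence made up the matches. The most frequent, with 9 matches, was CCAGAAGAGGGC, and CCACTAGAGGGC, CCACTAGATGGC, CCAGCAGAGGGC and CCAGCAGGGGGC had 8 each. Most peaks were unique in the genome, since every stretch of 31 bases was found nowhere else in mm9 in 377 of 408 peaks (92.4%, 89.4% to 94.8%).

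The CTCF content was then compared with that of the classes of peak most like these. Common peaks inside genes held a match in 148 of 323 (45.8%). The difference of 2.71 percentage points (Newcombe interval -4.56 to 9.93) was within counting error, and its interval leaves room for a difference in either direction. Common peaks at promoters held one in 46 of 263 (17.5%), 31 percentage points fewer (24.1 to 37.4). Novus peaks between genes that no Santa Cruz peak overlapped held one in 246 of 892 (27.6%), 21.0 percentage points fewer (15.3 to 26.6), and Santa Cruz-only peaks between genes held one in 16.1%, 32.4 percentage points fewer (27.5 to 37.3). With exact matches only, the difference from common promoter peaks was 12.7 percentage points (7.95 to 17.2) and that from Novus-only peaks 8.12 (4.13 to 12.5). Between genes, 31.4% of Novus peaks (408 of 1300, 28.9% to 34.0%) were common, a share that the rule itself uses. The centres of the 2 calls lay a median of 72.0 bp apart. CTCF matches were found in 82 of 151 peaks with centres less than 50 bp apart (54.3%, 46.0% to 62.4%). They were found in 52 of 120 with centres 50 to 100 bp apart (43.3%, 34.3% to 52.7%). With centres 100 bp apart or more, 64 of 137 held one (46.7%, 38.1% to 55.4%), and all these intervals overlap.

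The common intergenic peaks lay closer to coding starts than the intergenic space as a whole. Their median distance to the closest protein-coding start was 30.1 kb (quartiles 11.7 and 58.5 kb), against 101.9 kb for the tiled windows. Within 10 kb of a start lay 86 peaks (21.1%, 17.2% to 25.4%) and 10.6% of the windows, and within 100 kb lay 351 peaks (86.0%, 82.3% to 89.2%) and 49.6% of the windows. Novus-only peaks between genes were placed alike, with a median of 28.6 kb and 20.9% within 10 kb. Santa Cruz-only peaks lay further out, with a median of 40.6 kb and 71.1% within 100 kb.

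**Figure D3:**
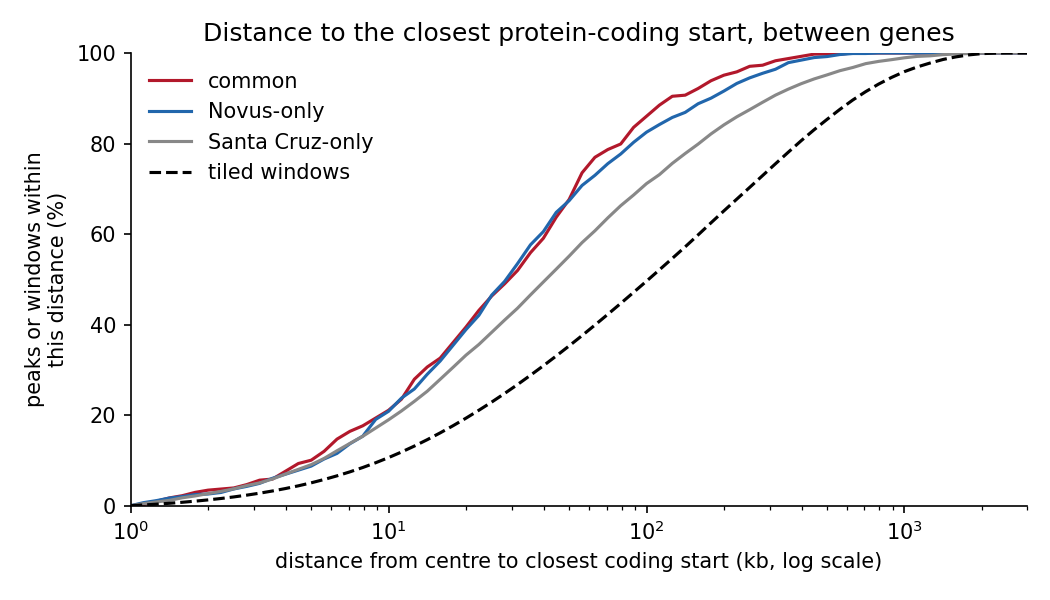
Percentage of TOP2B peaks between genes whose centre lies within a given distance of the closest protein-coding start (log axis, kb), for common, Novus-only and Santa Cruz-only peaks, with all tiled 500-bp windows between genes as a dashed line. At 10 kb the common peaks have reached 21.1% and the windows 10.6%, and at 100 kb 86.0% and 49.6%.

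The CTCF content fell with distance from a start. Between 1 and 5 kb from a start, 28 of 41 common intergenic peaks held a match (68.3%, 51.9% to 81.9%), between 20 and 50 kb 60 of 114 did (52.6%, 43.1% to 62.1%), and beyond 100 kb 15 of 57 did (26.3%, 15.5% to 39.7%). The nearest and the furthest band differed by 42.0 percentage points (Newcombe interval 22.1 to 57.5), a pair of bands that was chosen after the values had been seen. The tiled windows fell too, from 5.60% to 2.49%. Their median GC content fell from 43.2% to 39.0%, whereas that of the peaks was 49.4% in the nearest band and 49.2% in the furthest. Among peaks of 40% to 50% GC, the nearest band held a match in 13 of 18 and the furthest in 11 of 35, and among those of 50% or more in 12 of 19 and 4 of 21. In Novus-only peaks the share was 32.1% in the nearest band, 41.6% at 10 to 20 kb and 15.4% beyond 100 kb.

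**Figure D4:**
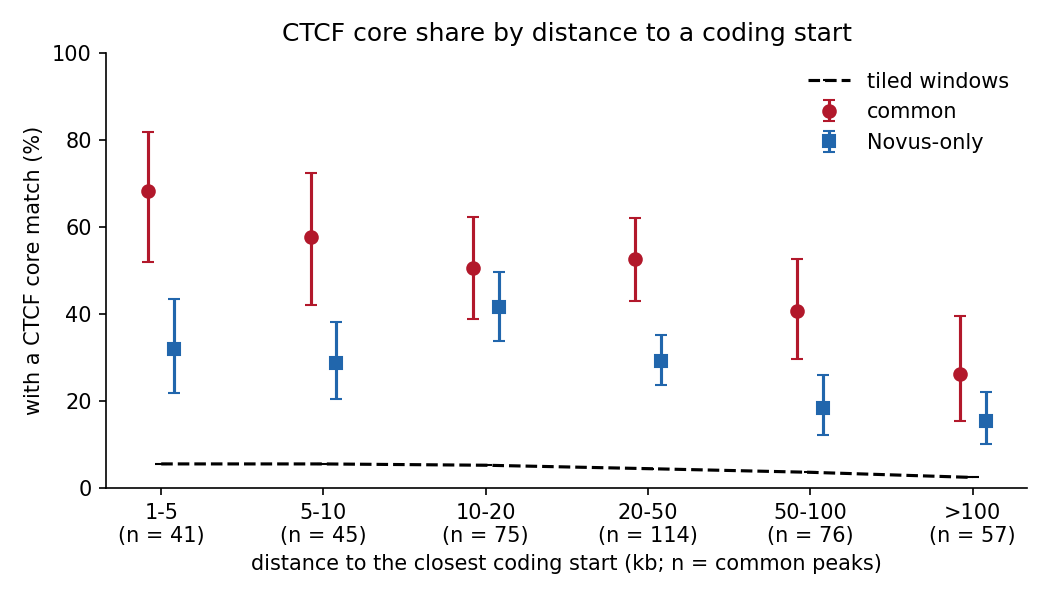
Percentage of TOP2B peaks between genes with a CTCF core match (at most 1 mismatch) by distance to the closest protein-coding start in kb, for common peaks (circles, with their number under each band) and Novus-only peaks (squares), both with exact 95% intervals, and for the tiled windows (dashed line). The common peaks go from 68.3% in the nearest band to 26.3% in the furthest.

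Put the other way, the peaks with a match lay a median of 22.9 kb from a start and those without one 37.7 kb, while both had a similar GC content (medians 48.5% and 49.2%) and number of CpG (8 and 9). The side of the closest start differed by less than the counting error. Of the 198 with a match, 131 lay upstream of the closest start (66.2%, 59.1% to 72.7%), and of the 210 without one, 138 did (65.7%, 58.9% to 72.1%). Over all common intergenic peaks 65.9% lay upstream, beside 66.3% of the Novus-only and 62.5% of the Santa Cruz-only peaks between genes.

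The choice of peaks had a threshold of 1 kb, and the peaks next to it on either side are given here without a test. Just inside were peaks 1095 bp from *Cenpc1* (a centromere protein), 1154 bp from *Fbxo11*, 1178 bp from *Ssh2*, 1201 bp from *Mettl17* and 1263 bp from *Cd96* (a receptor of T and natural killer cells). Just outside, and not counted here, were common peaks 859 bp from *Cd164*, 803 bp from *Abt1*, 751 bp from *Pou2f2* and 726 bp from *Cyp1b1*. Of the 5 just inside, 4 held a CTCF core match, and of these 4 just outside, 3 did. The GC content of those inside lay between 43.4% and 55.6%, and that of those outside between 48.6% and 63% (63% at *Pou2f2*).

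At the other end, the 5 peaks furthest from any coding start were 579.1 kb from *Rbfox1* (a neuronal splicing factor), 415.0 kb from *Hs6st1* (a heparan sulfate sulfotransferase), 399.7 kb from *Ets1* (an ETS factor of the T lineage), 390.1 kb from *Ebf1* and 358.5 kb from *Lpin1* (a phosphatidate phosphatase). Of these, the peak beyond *Ebf1* was the only one with a CTCF core match, an exact one, printed above.

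The gaps between genes that held a common intergenic peak were short. Their median length was 90.6 kb (quartiles 34.9 and 246.7 kb), whereas the median tiled window lay in a gap of 435.3 kb. Gaps of 500 kb or more made up 47.2% of the windows and held 40 peaks (9.80%, 7.10% to 13.1%), and gaps under 20 kb made up 4.24% and held 53 peaks (13%, 9.88% to 16.6%). In gaps of 20 to 50 kb, 53 of 85 peaks held a CTCF match (62.4%), and in those of 500 kb or more 15 of 40 (37.5%). The share was 54.7% in gaps under 20 kb, 48.75% at 50 to 100 kb, 50.7% at 100 to 200 kb and 33.3% at 200 to 500 kb. It thus did not fall evenly with gap length. Among the windows the share with a match went from 7.18% in the shortest gaps to 2.38% in the longest. In 121 peaks the starts of both neighbouring genes faced the peak (29.7%, 25.3% to 34.3%, beside 26.5% of the windows), in 74 both ends did (18.1%, 14.5% to 22.2%, beside 22.1%), and in 213 the genes ran in the same direction (52.2%, 47.2% to 57.1%, beside 51.0%). The direction of the flanking genes thus differed little from that of the space itself. CTCF matches were found in 43.8%, 43.2% and 53.1% of these 3 kinds of gap, with intervals that overlap.

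The common intergenic peaks were sparse. The gap from one to the next on the same chromosome had a median of 2794 kb (quartiles 665.4 and 7149 kb, range 0.287 to 60884 kb). Another common intergenic peak lay within 50 kb of 36 peaks (8.82%, 6.26% to 12%) and within 1000 kb of 200 (49.0%). With every common peak counted, including those at promoters and inside genes, the closest other one lay at a median of 339.2 kb, and 50 peaks had one within 50 kb (12.3%, 9.23% to 15.8%). Only 10 peaks had a common promoter peak within 50 kb (2.45%). A second Santa Cruz peak was closer, with a median of 21.8 kb, as that list is longer. Per Mb of intergenic space, chromosomes 17 (0.560) and 11 (0.507) held the most common intergenic peaks and the X chromosome (0.0687) and chromosome 4 (0.100) the fewest, around 0.264 over all chromosomes.

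No run of 3 or more common intergenic peaks with gaps under 50 kb was found, and the 36 close peaks formed 18 pairs, each within 1 gap between genes. Both peaks of a pair held a CTCF match in 7 pairs, 1 of them in 7 and neither in 4. The pairs named next were picked after their values had been seen. Between *Satb1*, a chromatin organiser of thymocytes, and *Kcnh8*, 2 peaks 9.79 kb apart both held a match, the first of them the exact core printed above. Between *Ksr1* and *Wsb1*, 2 peaks 10.6 kb apart did so as well, again with the core printed above in the second. Between *Ezh2*, the enzyme that methylates histone H3 lysine 27, and *Pdia4*, the peaks were 0.427 kb apart and 1 held a match. In 5 pairs the peaks were less than 1 kb apart, and counting each of these pairs once left 403 regions.

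The direction of the CTCF matches was compared between neighbouring peaks that held matches on 1 strand only. Of 167 such pairs, 47 pointed toward each other (28.1%, 21.5% to 35.6%), 45 away from each other (26.9%, 20.4% to 34.3%) and 75 in the same direction (44.9%, 37.2% to 52.8%). Among the 32 pairs within 1000 kb, 11 pointed toward each other (34.4%, 18.6% to 53.2%), 8 away and 13 in the same direction. Only these 32 of the 167 pairs lay within 1000 kb, and CTCF sites outside the common intergenic peaks were skipped. Whether facing pairs are preferred therefore cannot be decided from these pairs. Within a peak, the match pointed toward the closest coding start in 91 such peaks (48.7%, 41.3% to 56.1%).

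Of the other 14 motifs searched, E-boxes, which are the shortest patterns, were the most frequent. E proteins such as E2A and HEB, which drive T cell development, bind E-boxes, and the spelling CAGCTG was found in 151 common intergenic peaks (37.0%, 32.3% to 41.9%) against 15.5% of the tiled windows and 24.8% of windows weighted to the same GC content. Novus-only peaks between genes held it in 27.9%, which is 9.10 percentage points fewer (3.63 to 14.7). Common peaks inside genes held it in 33.1%, which lies within the interval of the common intergenic peaks. The spelling CACCTG was found in 184 (45.1%, 40.2% to 50.1%) against 25.2% and, at the same GC content, 36.4%. Novus-only peaks between genes held it in 40.7%, a difference of 4.40 percentage points (-1.36 to 10.2) that was within counting error, and common peaks inside genes held it in 46.1%. An E-box of either spelling was present in 268 peaks (65.7%, 60.9% to 70.3%) and 36.4% of the windows. Some CTCF cores contain CACCTG on the other strand. Peaks without a CTCF match held E-boxes as well, CAGCTG in 37.6% and CACCTG in 48.1%, beside 36.4% and 41.9% of those with one. Beyond 100 kb from a start, where CTCF matches were fewest, CAGCTG was found in 20 of 57 peaks (35.1%, 22.9% to 48.9%) and CACCTG in 29 (50.9%, 37.3% to 64.4%).

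Motifs of other thymocyte factors, whose patterns are longer, were rarer. Relative to windows of the same GC content, the ratio was 1.49 for CAGCTG and 1.24 for CACCTG. It was 1.39 for ETS, 1.37 for RUNX, 1.25 for GATA, 1.24 for TCF/LEF and 0.968 for AP-1. ETS motifs (AGGAAGT) were found in 70 peaks (17.2%, 13.6% to 21.2%) against 11.6% of the windows and 12.3% at the same GC content. They were present in 21.9% of peaks without a CTCF match (16.5% to 28.1%) and in 12.1% of those with one (7.92% to 17.5%). Novus-only peaks between genes held ETS motifs in 17.3%, and common peaks inside genes in 17.6%. RUNX motifs (TGTGGTT) were found in 55 peaks (13.5%, 10.3% to 17.2%) against 11.2%, which lies within the interval. At the same GC content the windows held 9.81%, which lies below the interval. The share of RUNX motifs was 16.3% in Novus-only peaks between genes and 16.4% in common peaks inside genes. GATA motifs (AGATAAG, 7.35%), TCF/LEF motifs (CTTTGAT, 8.82%) and AP-1 motifs (TGANTCA, 12.7%) had intervals that held both background values. The heptamer of recombination signals (CACAGTG), at which RAG cuts, was found in 67 peaks (16.4%, 13% to 20.4%) against 10.8%, but against 14.1% at the same GC content, which lies within the interval.

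Among promoter-type motifs, the GC box (GGGGCGG) was found in 34 peaks (8.33%, 5.84% to 11.5%), against 1.44% of the windows and 4.31% at the same GC content. Novus-only peaks between genes held it in 7.96% and common peaks inside genes in 6.19%, both within the interval. NRF1 sites (GCGCATGCG) were found in 3 peaks (0.735%, 0.152% to 2.13%), against 0.0532% of the windows and 0.150% at the same GC content, and the CRE (TGACGTCA) in 1. The CCAAT box (CCAATCA) was rarer than in the background, with 10 peaks (2.45%, 1.18% to 4.46%) against 6.78%, or 6.92% at the same GC content. Novus-only peaks between genes held it in 5.72%, which makes a difference of -3.27 percentage points (-5.32 to -0.857). YY1 motifs (AAGATGGC), whose last 7 bases can be part of a CTCF core, were found in 22 peaks (5.39%, 3.41% to 8.05%) against 4.79%, but against 7.87% at the same GC content, so that the direction turned with the background, and both values lie within the interval. The ZNF143 core (TCCCAGNAT), another motif of loop anchors, was found in 7 (1.72%, 0.693% to 3.50%) against 2.89%, or 3.68% at the same GC content. Both strands were searched for every motif, and 23 peaks (5.64%, 3.61% to 8.34%) held none of the 15 motifs including the CTCF core. At least 20 CpG dinucleotides in 500 bp, as in CpG islands, were found in 43 peaks (10.5%, 7.73% to 13.9%) and 0.563% of the windows. Novus-only peaks between genes reached this number in 7.06%.

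**Figure D5:**
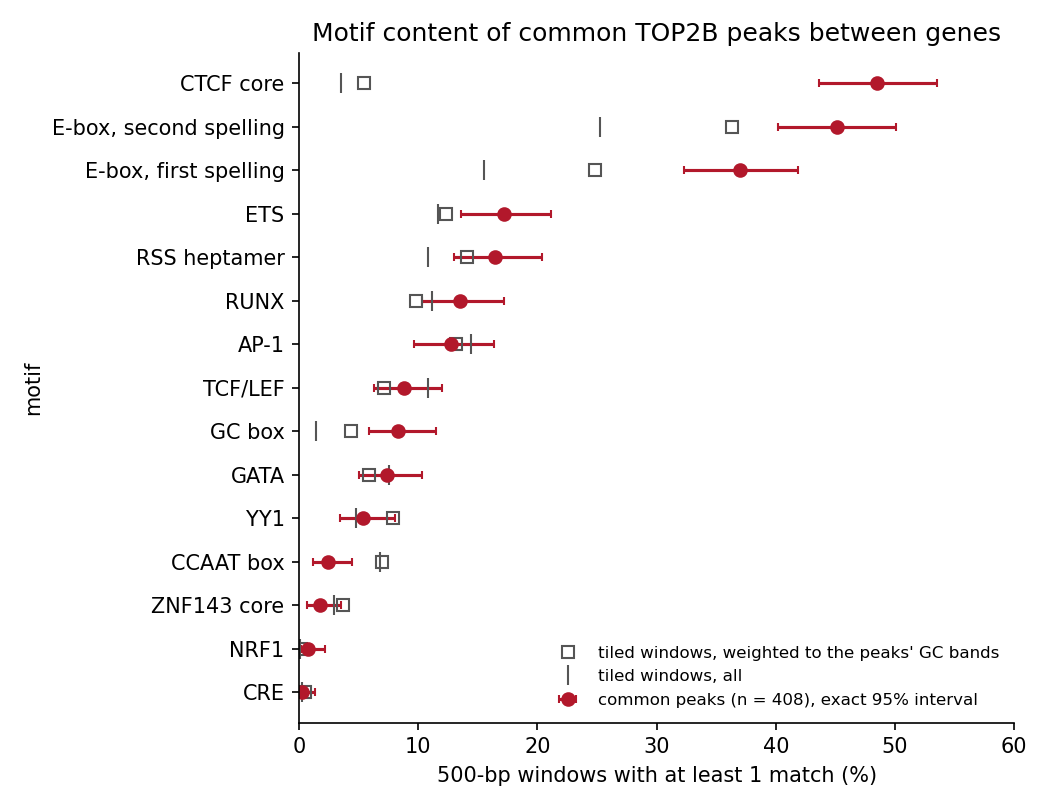
Percentage of 500-bp windows with at least 1 match to each motif, for the 408 common TOP2B peaks between genes (points, with exact 95% intervals) and for the tiled windows between genes, as they are (ticks) and weighted to the GC bands of the peaks (squares). The first E-box spelling is CAGCTG and the second CACCTG, and the CTCF core, with at most 1 mismatch, lies furthest from its background (48.5% against 5.45% at the same GC content).

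To show what a peak without a CTCF core can hold, 2 of those with the most different other motifs inside the peak are given here (mm9, plus strand), with every match to the 14 other motifs in capitals.
*Hnrnpa3* peak (chr2:75438716-75438910, plus strand): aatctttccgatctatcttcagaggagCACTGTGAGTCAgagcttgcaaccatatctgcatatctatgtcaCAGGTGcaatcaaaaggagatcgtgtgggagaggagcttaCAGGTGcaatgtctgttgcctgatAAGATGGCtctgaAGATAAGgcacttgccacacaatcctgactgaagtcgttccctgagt
*4930449E01Rik* peak (chr14:105874435-105874629, plus strand): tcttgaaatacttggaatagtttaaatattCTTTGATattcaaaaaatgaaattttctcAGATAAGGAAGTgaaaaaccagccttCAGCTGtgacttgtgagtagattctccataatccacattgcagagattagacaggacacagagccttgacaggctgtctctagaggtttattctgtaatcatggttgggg
The first, 58.5 kb from *Hnrnpa3*, held 5 kinds of motif (a YY1, a GATA and an AP-1 motif, the heptamer and 2 E-boxes CACCTG). The second held an ETS and a GATA motif that share bases, an E-box CAGCTG and a TCF/LEF motif.

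In the *Cxcr4* locus, 1 common intergenic peak was found, 232.2 kb upstream of the start of this chemokine receptor gene, which guides the homing of thymocyte progenitors. The study shows this locus as an illustration, and the sequence of the peak is therefore given (mm9, plus strand). The capitals mark the CTCF core, an exact match on the minus strand.
*Cxcr4* peak (chr1:130720924-130721118, plus strand): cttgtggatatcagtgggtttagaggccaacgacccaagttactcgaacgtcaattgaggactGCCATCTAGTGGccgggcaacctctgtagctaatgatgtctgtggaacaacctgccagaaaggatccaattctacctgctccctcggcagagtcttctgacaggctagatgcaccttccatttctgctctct

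Among antigen receptor loci, 3 common intergenic peaks lay within 1 kb of the start of a variable segment that the annotation does not class as protein-coding. In the *Tcrb* locus a peak lay 750 bp upstream of *Trbv2* (chr6:40996708-40996902), with no CTCF core match, and another 435 bp upstream of *Trbv12-1*, with a match and a heptamer motif. The third lay 170 bp upstream of *Tcrg-V7* (chr13:19269644-19269838), outside the window used for the *Tcrg* locus, without a CTCF match. The peak at *Trbv12-1* is printed as the case in which a CTCF-like core (in capitals, with 1 mismatch) stands beside a variable segment (mm9, plus strand).
*Trbv12-1* peak (chr6:41063034-41063228, plus strand): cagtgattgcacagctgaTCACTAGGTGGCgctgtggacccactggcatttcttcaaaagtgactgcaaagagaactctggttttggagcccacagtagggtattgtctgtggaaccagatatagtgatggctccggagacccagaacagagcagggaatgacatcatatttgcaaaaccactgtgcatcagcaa
In the *Igh* locus a peak at chr12:115825522-115825716 held an exact CTCF core, and its closest coding start, that of *Gm7112*, was 324.5 kb away. This distance leaves out the start of any segment that the annotation does not class as protein-coding. Beyond that window lay 2 more peaks that flank *Ighv1-73*, a variable segment annotated as protein-coding. One (chr12:116930084-116930278), 98.9 kb from its start, held no CTCF match, and the other (chr12:117249080-117249274), 31.4 kb from *Zfp386*, held an exact core. The windows used for *Tcra/d*, *Tcrg*, *Bcl11b* and *Notch1* held no common intergenic peak. Peaks inside genes, at promoters or called with a single antibody were not counted there, and the study reports TOP2B binding at these loci.

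The common intergenic peaks were flanked by 727 protein-coding genes, 3.25% of all 22350, and 73 genes flanked 2 or more. *Prkcq*, the protein kinase C theta of T cell receptor signalling, flanked the most, with 4 peaks. They lay 112.2, 58.6 and 12.4 kb upstream of its first start and 81.0 kb downstream of a later start inside the gene. Distances to a flanking gene are taken from whichever of its coding transcript starts is closest. Of the 4 peaks, the second and the last held a CTCF core match. *Lef1*, *Cd83*, *Ly86* and *Rreb1* were among those with 3.

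Genes of the T lineage were counted with lists of genes. Of 34 annotated T-lineage transcription factor genes, 9 flanked a common intergenic peak (26.5%, 12.9% to 44.4%), and of 33 T cell receptor signalling genes, 7 did (21.2%, 8.98% to 38.9%). Of 28 genes of neuronal receptors and channels none did (exact upper limit 12.3%). A gene flanks a peak more readily where the gap beside it is long, and the lists were not matched for that. Counted instead as genes with a start within 100 kb of a peak, which 5.18% of all coding genes had, 4 transcription factor genes (11.8%) and 9 signalling genes (27.3%) were found.

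The transcription factor genes were *Lef1*, *Runx1*, *Id2*, *Ets1*, *Ets2*, *Ikzf2*, *Satb1*, *Foxo1* and *Bcl6*. For *Lef1*, which acts in early T cell development, the peaks lay 349.6, 291.6 and 90.8 kb upstream of the start, and the second held a CTCF match. For *Satb1*, 1 peak lay 46.1 kb upstream, without a match, and the pair described above lay 726.8 and 736.6 kb upstream, next to *Kcnh8*. For *Ets1*, both peaks lay downstream, 119.6 and 399.7 kb from the closest of its starts, which lies inside the gene, without a match. For *Id2*, an inhibitor of E proteins, the peak lay 3.67 kb downstream of the start and held a match. Those of *Runx1* (467.3 kb), *Bcl6* (271.1 kb) and *Foxo1* (254.8 kb) were distant and had no match, and *Ikzf2* (104.4 kb) had one.

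The signalling genes were *Lat*, *Prkcq*, *Malt1*, *Pag1*, *Rasgrp1*, *Nfatc2* and *Rhoh*. The peak 27.4 kb upstream of *Nfatc2*, a calcium-regulated transcription factor, and the peak 45.7 kb downstream of the start of *Lat*, an adaptor of the receptor, both held an exact CTCF core. Peaks upstream of *Rasgrp1* (98.2 kb), which activates RAS, and of *Pag1* (53.3 kb), an adaptor that recruits an inhibitory kinase, held none. *Rhoh*, a GTPase of blood cells, had a peak on each side of the gene, 12.5 kb upstream without a match and 47.0 kb downstream with one. Of *Malt1*, an NF-κB signalling protease, 2 peaks 0.287 kb apart lay 59.0 and 59.3 kb downstream of the start, and both held a match.

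In the other 6 lists, whose counts are likewise set beside the 3.25% of all coding genes, 1 to 4 genes flanked a peak. Those of survival and death were *Bcl2l11*, *Fas* and *Fasl* (3 of 22), those of cytokine receptors and homing were *Cxcr4*, *Cd44* and *Tgfbr2* (3 of 28), and of CD3, coreceptor and recombinase genes *Cd2* (1 of 13). For *Bcl2l11*, which encodes the death protein BIM, 2 peaks lay 270.2 and 286.5 kb downstream of the start, inside the long non-coding RNA gene *Gm14005*, and both held a CTCF match. *Tgfbr2*, a TGF-β receptor, had peaks 119.0 kb upstream, without a match, and 209.2 kb upstream, with one. Of immediate early genes *Ier3* flanked a peak (1 of 21), of genes of chromatin loop and insulator proteins the cohesin loader *Nipbl* and *Yy1* (2 of 19), and of ribosomal protein genes *Rps3*, *Rps19*, *Rps24* and *Rpl24* (4 of 38). Counted within 100 kb, ribosomal protein genes (5 of 38, 13.2%) and CD3, coreceptor and recombinase genes (2 of 13, 15.4%) reached shares above that of the transcription factor genes. The share was 10.5% for loop and insulator proteins, 4.76% for immediate early genes and 4.55% for survival and death genes, and no gene of the cytokine receptor and homing list had a start that close. The peak at *Rps19*, 5.69 kb from its start, held an exact CTCF core in a gap of 7.57 kb.

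For the genes with the closest start, 377 by gene identifier (2 of them share the symbol *Sox4*), peaks at a start of their own were counted. A Santa Cruz peak within 1 kb of a start was found for 82 of them (21.8%, 17.7% to 26.3%), against 12.1% of all coding genes. The Santa Cruz list also made the choice of peaks, and the closest genes of Novus-only peaks were not counted. No conclusion is therefore drawn from this share. A common peak at a start was found for 8 (2.12%, 0.920% to 4.14%), against 1.27% of all, which lies within the interval. Whether these genes are also transcribed in thymocytes was not measured.

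Not all of the space between coding genes was empty of genes. Of the 408 peaks, 24 lay inside a non-coding gene and 14 within 1 kb of a non-coding or segment start, 33 in all, of which 16 held a CTCF match. They included a peak in *Xist* and its antisense gene *Tsix*, the pair that governs X inactivation (chrX:100672884-100673078, no match), and a peak in *2610307P16Rik*, 286.8 kb from *Sox4*, a transcription factor of progenitor cells, without a match.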

How the data were processed

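TOP2B peak lists of 2 ChIPseq libraries were used, 1 per antibody. Per the labels and the study's methods, the authors fixed thymocytes with formaldehyde, made libraries by ChIPmentation, mapped the reads on mm9 (Bowtie 1.2.0), and called the peaks of each library separately with HOMER in factor style, at least 10-fold over IgG. The deposited unit is a position (chromosome, start, end), with 1 fixed peak width per list. The deposited score was 0 for every peak, so peaks could not be ranked.

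Peaks were placed by their centre on GENCODE M1 (also mm9). Motifs were searched on both strands within 250 bp of the centre, with 1 mismatch allowed in the CTCF core only, and in all non-overlapping 500-bp windows between genes. GC-weighted shares take each GC band of windows in proportion to the peaks. Intervals are exact Clopper-Pearson for shares and Newcombe for differences, at 95%. Reads at repeated sequence can be lost in alignment, so stretches of 31 bases found elsewhere in mm9 were counted. The search was tested on simulated data. The members, lists and motifs were chosen with earlier results of these data known. Peaks named are those in the loci that the study names, the 5 furthest from a start, 5 on each side of the 1-kb limit, the 10 with an exact CTCF core closest to the centre, the 3 without a CTCF match that hold the most other motifs, and any run of 3 or more with gaps under 50 kb. Of these, 1 peak just under the 1-kb limit and 1 without a CTCF match are not reported here. Genes named are the closest genes of these peaks and the flanking genes of the lists, and further ones were picked after their values were seen. Python 3.11.15, numpy 2.4.6, pandas 2.3.3, scipy 1.17.1, statsmodels 0.14.6, numba 0.67.0, matplotlib 3.10.9 and samtools 1.23.1 were used.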

Additional observations from a re-analysis of the deposited data

How the results depend on the processing

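Of 84 results under alternative settings, 41 stayed within 1.5 times (counts) or within the 95% interval (shares, medians and differences), and 43 moved. None changed sign, which only differences can do. Of those that moved, 25 were shares of motifs other than CTCF in shorter or longer windows. In a setting not among the 84, exact matches within the peak itself, the difference in CTCF share from common peaks inside genes was -2.03 percentage points (-6.78 to 2.51). Requiring 50% of both peaks to be shared left 251 common intergenic peaks, of which 4.78% had another one within 50 kb, and extending both lists by 1 kb raised that share to 14.5% and the share of Novus intergenic peaks that were common to 41.8%. The CTCF share was 33.6% within the Novus peak itself, 17.6% with exact matches and 76.5% with 2 mismatches. With exact matches, the difference from common promoter peaks was 12.7 percentage points, that from Novus-only peaks 8.12 and that between the nearest and furthest distance bands 20.5, and 20.4% of neighbouring CTCF matches pointed toward each other. With 2 mismatches the bands differed by 18.7 percentage points. The settings for these bands were chosen after seeing the data. Measured to the closest gene edge, the median distance was 17.2 kb, and 34.8% lay within 10 kb. Another common intergenic peak lay within 10 kb of 3.92% and within 100 kb of 15%. A start within 100 kb of a peak was found for 1157 coding genes. GC content over the peak itself had a median of 50.3%. By construction, these settings change the length searched, the strictness of the match or the distance counted. With genes of every type keeping a peak out, 375 peaks remained, with a CTCF share of 48.5%.

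No paired analysis was possible because each antibody had 1 library, and leaving out a library leaves no common peaks. The search outside repeats was not run, since the genome sequence used marks none. The lists give no heights or reads, so that no value here is set against peak strength, and a difference of 2.71 percentage points in CTCF share was not detectable with 408 peaks.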
